A study of Mus musculus with 6 samples.

Results

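The 10 genes described here encode brakes on the growth kinase complex mTORC1 (Ddit4, Ddit4l, Deptor, Tsc1 and Tsc2) and parts of the Rag-folliculin branch that acts on it at the lysosome (Rragc, Rragd, Flcn, Fnip1 and Fnip2). They were taken by gene symbol from a table of 51482 measurements, 14575 of which the authors tested, and all 10 were found and tested. RNA was sequenced from wild-type (WT) mouse embryonic fibroblasts, connective tissue cells grown from embryos, which had been immortalised with SV40. The 6 samples were 3 kept in normoxia (21% oxygen) and 3 kept in hypoxia (0.5% oxygen), each for 16 h, and the series design calls the triplicates biological. No genotype or drug differed between the groups, and SV40 immortalisation is shared by both.

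mTORC1 is a protein kinase complex that drives protein and lipid synthesis and restrains autophagy when nutrients and energy are plentiful. TSC1 and TSC2 form a complex that switches off the small GTPase RHEB, the direct activator of mTORC1, and DDIT4 (REDD1) and its relative DDIT4L (REDD2) act against mTORC1 through that complex. DEPTOR binds the kinase itself. The Rag GTPases, a heterodimer of RagA or RagB with RagC or RagD, bring mTORC1 to the lysosome, and folliculin (Flcn) with FNIP1 or FNIP2 acts on RagC and RagD to set their nucleotide state. Activity of this branch controls whether the transcription factors TFEB and TFE3 are held in the cytoplasm, and genes of the branch are themselves known targets of these factors. DDIT4 is known as a gene induced by low oxygen.

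Of the 10 genes, 8 rose in hypoxia, 1 fell and 1 was not called. A call means a Cuffdiff q (adjusted p) below 0.05, as listed in the authors' deposited table. Over all tested measurements 28.9% were called higher and 29.0% lower, 57.9% in all. The 10 genes were chosen with earlier results of these data known, so these counts and shares are descriptions without a test. The 5 genes taken from the Rag-folliculin branch all rose, with a median log2 fold change of 1.59. Rraga, the RagA gene of that branch and not among the 10, was called lower. Among the 5 inhibitors Ddit4, Deptor and Tsc1 rose, Ddit4l fell and Tsc2 was not called. The median log2 fold change of the 10 genes was 0.98, against -0.01 over all tested measurements. Values are FPKM, fragments scaled to transcript length and library size, so levels of different genes can be set side by side. The table gives 1 FPKM per gene and condition, combined from the 3 samples, so no value carries an SD and overlap between single samples cannot be seen. The 9 called genes share the smallest q in the table, 0.000139, which 5148 tested measurements hold, so q does not rank them. In bulk RNA, more cells with a transcript and more transcript per cell cannot be told apart.

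Upstream sequence is shown for the 3 genes whose RefSeq promoter window holds the letters ACGTG, and for Rragd. The windows (GRCm38.p6) run from 250 bases before to 50 after the annotated start. ACGTG is a form of the core of the element bound by hypoxia-inducible factors. GCGTG, another form, was not searched and is not marked. Rragd had the largest rise of the 10, and its window does not hold ACGTG. Windows were found for 9 of the 10 genes, and Deptor has none in the table used. The stretches are 5′ to 3′ on the strand of the gene, limited to bases outside annotated exons, with ACGTG or CACGTG in capitals. They lie at chr10:59951835-59952020 (minus strand, Ddit4), chr11:54437929-54438178 (plus, Fnip1), chr4:123917270-123917432 (plus, Rragc) and chr4:32982748-32982997 (plus, Rragd).
Ddit4: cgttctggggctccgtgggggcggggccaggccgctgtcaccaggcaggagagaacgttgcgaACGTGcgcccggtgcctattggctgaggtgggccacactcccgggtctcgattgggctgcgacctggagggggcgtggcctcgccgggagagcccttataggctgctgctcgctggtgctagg
Fnip1: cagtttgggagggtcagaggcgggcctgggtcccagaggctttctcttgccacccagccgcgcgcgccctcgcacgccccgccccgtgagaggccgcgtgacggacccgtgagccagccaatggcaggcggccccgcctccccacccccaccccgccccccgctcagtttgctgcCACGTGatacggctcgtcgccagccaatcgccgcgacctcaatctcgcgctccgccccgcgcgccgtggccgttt
Rragc: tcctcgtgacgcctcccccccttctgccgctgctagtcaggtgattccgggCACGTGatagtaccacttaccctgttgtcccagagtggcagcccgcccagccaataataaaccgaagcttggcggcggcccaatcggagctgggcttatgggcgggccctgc
Rragd: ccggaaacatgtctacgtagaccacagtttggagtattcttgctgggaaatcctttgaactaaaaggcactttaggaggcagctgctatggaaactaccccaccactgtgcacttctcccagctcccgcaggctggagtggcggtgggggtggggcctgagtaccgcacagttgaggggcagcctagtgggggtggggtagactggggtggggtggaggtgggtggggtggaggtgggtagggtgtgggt

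In Ddit4 the ACGTG began 187 bases before the start. Fnip1 and Rragc carried the palindrome CACGTG, the E-box core also found in the element of TFEB and TFE3, beginning 75 and 112 bases before the start. CACGTG contains ACGTG on each strand, so those 2 genes count for both motifs. On either strand, ACGTG occurred in 3 of the 9 windows and in 19.6% of 32851 promoter windows of the same length, and CACGTG occurred in 2 of the 9 and in 7.15%. The motif TGATGNAA, part of the element bound by ATF4 with C/EBP partners, occurred in none of the 9 and in 3.97% of all windows. The median GC content was 65.7% in the 9 windows and 52.7% in all windows. A match is a description of these letters, not of binding, and elements farther from the start lie outside the window.

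Ddit4 (ENSMUSG00000020108, chromosome 10, 59949669 to 59951834, minus strand, GRCm38) was the most abundant of the 10 in both conditions. Its level was 91.9 FPKM under normoxia and rose 2.02-fold to 185 FPKM under hypoxia (log2 fold change 1.01). Its increase of 93.4 FPKM was the largest absolute change among the 10 genes. Even so, 1609 tested measurements had a larger log2 fold change, and the hypoxic level exceeded that of 96.6% of tested measurements.

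Ddit4l (ENSMUSG00000046818, chromosome 3, 137621612 to 137628333, plus strand) went the other way. From 2.56 FPKM under normoxia it fell 3.35-fold to 0.764 FPKM (log2 fold change -1.74). Only 4.01% of tested measurements had a smaller log2 fold change. Ddit4 was thus 35.9 times as abundant as Ddit4l in normoxia and 242 times in hypoxia, while the sum of both went from 94.4 to 186 FPKM. The pair is dominated by Ddit4 in both conditions, and neither gene overlaps another annotated gene.

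Tsc1 and Tsc2, which encode the partners of the complex that inactivates RHEB, differed in their calls. Tsc1 (chromosome 2, 28641228 to 28691167, plus strand) went from 8.45 to 16.4 FPKM, a 1.94-fold rise. Tsc2 (chromosome 17, 24595816 to 24632630, minus strand) had 43.8 FPKM under normoxia and 46.9 FPKM under hypoxia, a ratio of 1.07 without a call (q = 0.765, the authors' deposited table). Tsc2 transcript was 5.18 times as abundant as Tsc1 in normoxia and 2.86 times in hypoxia. Whether the folds of the paired genes differ from each other could not be tested, since that needs values of single samples. Tsc2 and the polycystin gene Pkd1 overlap by 693 bases at their 3′ ends on opposite strands, and the table gives both the same locus. Pkd1 went from 27.1 to 16.8 FPKM (q = 0.0254 in the authors' deposited table), 1.61-fold lower. Its part in the Tsc2 value was not tested. Deptor (chromosome 15, 55112317 to 55259271, plus strand) was scarce throughout and rose 1.99-fold from 1.09 to 2.18 FPKM. Its normoxic level exceeded that of 18.2% of tested measurements.

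**Figure D1:**
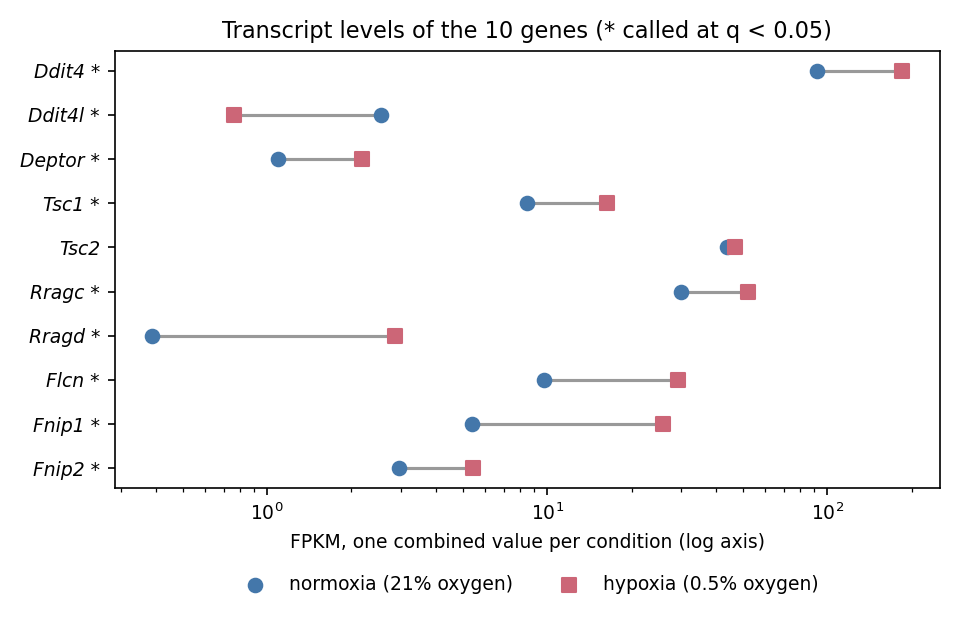
FPKM of each of the 10 genes on a log axis, 1 combined value for normoxia (circles) and 1 for hypoxia (squares), joined by a line, with an asterisk where the authors' table calls a difference. Ddit4l is the gene whose hypoxic value (0.764) lies to the left of its normoxic value (2.56), the markers of Tsc2 nearly coincide, and Rragd has the longest line, from 0.388 to 2.87.

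Folliculin and its partner genes rose together. Flcn (ENSMUSG00000032633, chromosome 11, 59791408 to 59810016, minus strand) went from 9.70 to 29.3 FPKM (3.02-fold, log2 fold change 1.59). Fnip1 (ENSMUSG00000035992, chromosome 11, 54438199 to 54518235, plus strand) rose from 5.40 to 26.0 FPKM (4.82-fold, log2 fold change 2.27). In normoxia its level exceeded that of 36.9% of tested measurements, and in hypoxia that of 71.1%. Fnip2 (chromosome 3, 79455974 to 79567796, minus strand) rose less, from 2.95 to 5.43 FPKM (1.84-fold).

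Folliculin works as a complex with either FNIP protein. Fnip1 made up 64.7% of the summed Fnip1 and Fnip2 FPKM in normoxia and 82.7% in hypoxia. That sum went from 8.35 to 31.4 FPKM, a ratio of 3.76, beside the 3.02-fold rise of Flcn. The ratio of Flcn to the summed partners was 1.16 in normoxia and 0.930 in hypoxia, so folliculin and its partners had similar summed levels in both conditions. These shares and ratios describe group values and carry no test.

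Both genes for the RagC and RagD GTPases rose, from very different levels. Rragc (ENSMUSG00000028646, chromosome 4, 123917446 to 123936997, plus strand) went from 30.1 to 52.0 FPKM (1.73-fold), the smallest fold among the 8 that rose. Rragd (ENSMUSG00000028278, chromosome 4, 32983037 to 33022180, plus strand) went from 0.388 to 2.87 FPKM (7.39-fold, log2 fold change 2.89), the largest fold of the 10, and 197 tested measurements had a larger one. Rragd was the least abundant of the 10 in normoxia, below all but 7.70% of tested measurements. Despite its fold it added 2.48 FPKM, against 21.9 FPKM added by Rragc. Rragc was 77.6 times as abundant as Rragd in normoxia and 18.1 times in hypoxia, and the Rragd share of their sum went from 1.27% to 5.23%. On the scale of log2(FPKM + 1), which damps folds of scarce transcripts, the change of Rragd was 1.48, close to that of Flcn (1.499) and below that of Fnip1 (2.08). A processed pseudogene, Gm12902, lies within the span of Rragc. The pseudogene had 0.109 and 1.76 FPKM without a call (q = 0.355, the authors' deposited table), well below the Rragc values.

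**Figure D2:**
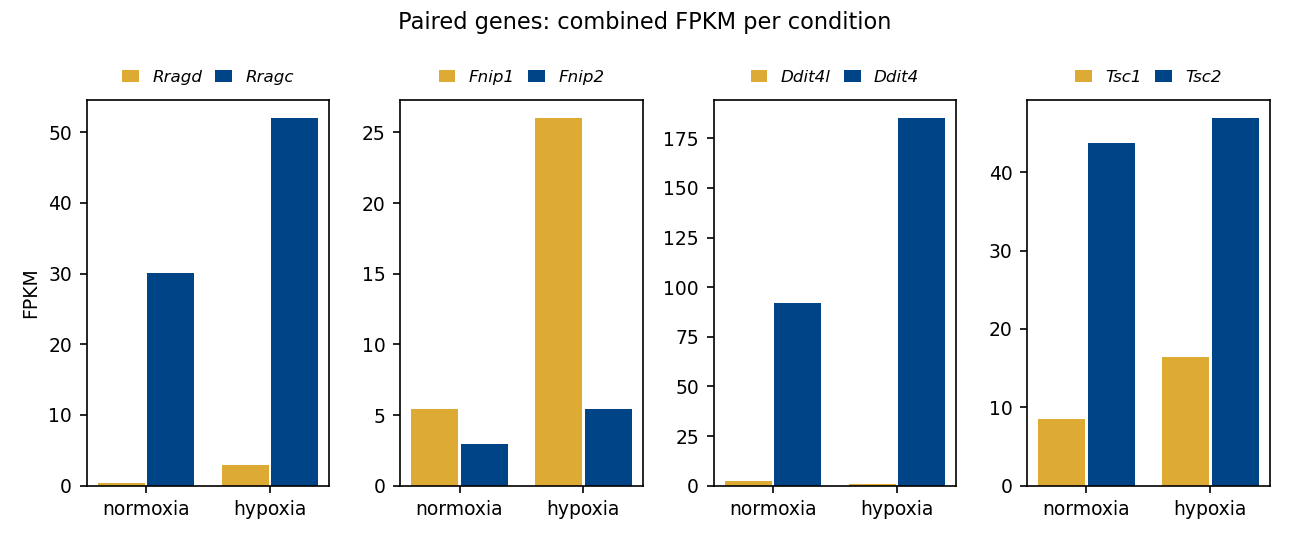
Bars give combined FPKM per condition, each panel with its own axis from 0, for Rragd and Rragc, Fnip1 and Fnip2, Ddit4l and Ddit4, and Tsc1 and Tsc2. Rragc and Ddit4 dominate their pairs in both conditions, Fnip1 reaches 26.0 FPKM in hypoxia beside 5.43 for Fnip2, and Tsc1 approaches Tsc2 without reaching it.

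By abundance in normoxia the order was Ddit4, Tsc2, Rragc, Flcn, Tsc1, Fnip1, Fnip2, Ddit4l, Deptor and Rragd. In hypoxia it was Ddit4, Rragc, Tsc2, Flcn, Fnip1, Tsc1, Fnip2, Rragd, Deptor and Ddit4l. The changes of place were thus Rragc above Tsc2, Fnip1 above Tsc1, Rragd above Deptor and Ddit4l, and Deptor above Ddit4l. Without an SD it cannot be said which neighbours in either order differ beyond their spread. Of the 8 genes that rose, 4 did so at least 2-fold (Rragd, Fnip1, Flcn and Ddit4), as did 9.03% of all tested measurements. Ddit4l fell by more than 2-fold, as did 9.87% of tested measurements. The other 4 (Deptor, Tsc1, Fnip2 and Rragc) rose between 1.73-fold and 1.99-fold. Deptor, at 1.99-fold, lay just under 2-fold and Ddit4, at 2.02-fold, just over it.

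**Figure D3:**
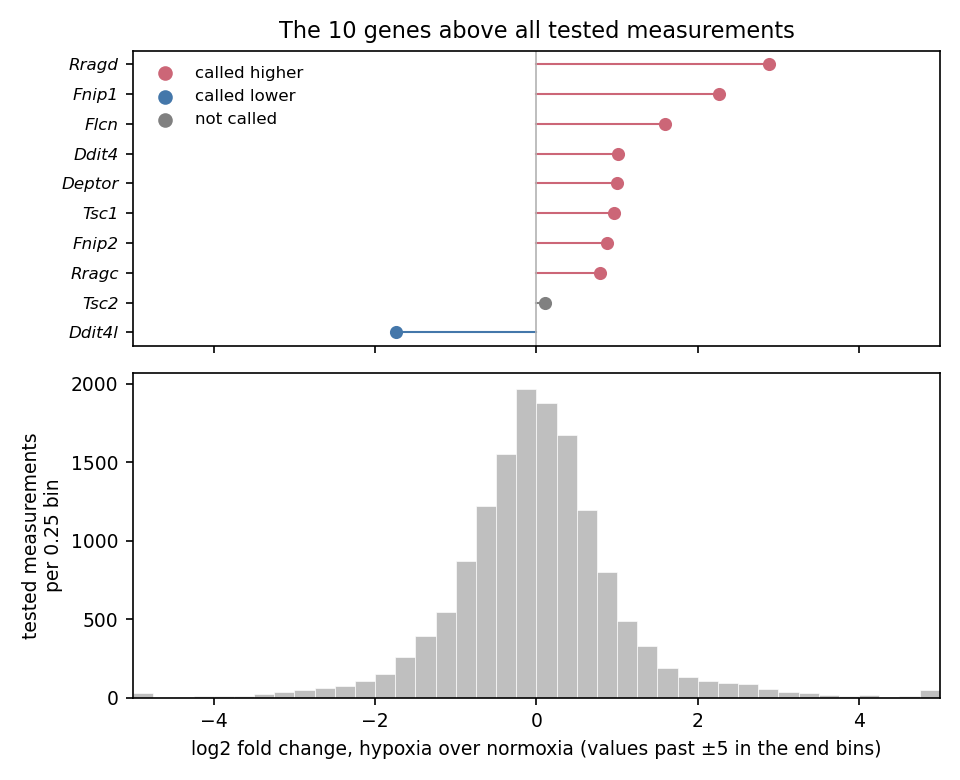
Upper panel: log2 fold change of hypoxia over normoxia for each of the 10 genes, coloured by the authors' calls. Lower panel: the number of the 14575 tested measurements in bins of log2 fold change on the same axis. Rragd (2.89) and Fnip1 (2.27) lie in the right tail, Ddit4l (-1.74) in the left tail, and Tsc2 (0.10) near the centre.

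The rest of the pathway did not move in 1 direction. Over 7 lists of other mTORC1 genes, 56 single-gene measurements were tested, with 20 rises, 20 falls, 16 without a call and a median log2 fold change of 0.05. All tested measurements were also split evenly, 28.9% higher and 29.0% lower, so the split is not particular to these lists. The same shares stand beside the count of each list that follows. In the kinase complex itself none of 4 rose and 2 fell: Rptor, encoding the scaffold subunit Raptor, went from 10.2 to 4.93 FPKM, and Mlst8 from 12.5 to 9.74 FPKM. The kinase gene Mtor had 18.4 and 21.0 FPKM without a call (q = 0.3996, the authors' deposited table). The Rag partner gene Rraga fell from 55.7 to 46.7 FPKM, unlike Rragc and Rragd. Among 7 tested genes of Rag partners and the lysosomal anchor Ragulator 3 rose, led by Lamtor3 (35.5 to 48.7 FPKM), 1 fell and 3 were not called.

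Genes of the GATOR complexes and KICSTOR, which pass amino acid signals to the Rags, gave 6 falls, 3 rises and 2 without a call among 11 tested. The GATOR1 gene Nprl3, whose product helps inactivate RagA, fell from 13.8 to 4.66 FPKM, and the GATOR2 gene Seh1l rose from 36.5 to 67.9 FPKM. Of 6 tested sensor genes 2 rose and 4 fell, with Bmt2 (SAMTOR, a sensor of S-adenosylmethionine) going from 10.2 to 27.3 FPKM and Sesn2 from 17.0 to 7.06 FPKM. Of the 3 tested genes around TSC and RHEB, Tbc1d7, the third subunit of the TSC complex, fell from 18.4 to 11.0 FPKM, whereas its partner Tsc1 rose. Rhebl1 rose from 8.74 to 10.8 FPKM, and Rheb was not called. Upstream kinase genes were split into 6 rises, 4 falls and 3 without a call among 13 tested. Prkab2, a regulatory subunit gene of the energy sensor AMPK, rose from 5.41 to 19.5 FPKM and Prkag2, another, fell from 18.0 to 9.23 FPKM. The 12 tested substrate genes gave 5 rises, 2 falls and 5 without a call, and Lpin1 rose most (8.13 to 50.1 FPKM).

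TFEB and TFE3, whose location the Rag-folliculin branch controls, were transcribed in both conditions. Tfeb had 19.1 and 22.2 FPKM without a call (q = 0.0618, the authors' deposited table), Tfe3 rose from 25.3 to 33.2 FPKM, and their scarce relative Mitf fell from 0.343 to 0.163 FPKM. Known targets of these factors other than the 10 genes gave 5 rises, no fall and 4 without a call among 9 tested, with a median log2 fold change of 0.40. Over all tested measurements 28.9% were called higher and 29.0% lower, with a median of -0.01. Whether these factors acted on the targets was not tested. Neu1, a lysosomal sialidase gene, rose from 17.6 to 39.6 FPKM. Of 3 tested genes of the C9orf72 complex, whose subunits C9orf72 and SMCR8 are DENN-domain proteins like folliculin and FNIP, 3110043O21Rik, the mouse C9orf72 gene, rose from 6.67 to 18.6 FPKM, Smcr8 rose from 7.17 to 8.91 FPKM, and Wdr41 fell from 6.77 to 3.92 FPKM. Among 5 tested transcription factor genes known to act on Ddit4, 3 rose, 1 fell and 1 was not called. Ddit3 (CHOP) rose from 36.4 to 175 FPKM, and Trp53, which encodes p53, fell from 116 to 73.3 FPKM. Hif1a shares a measurement with other genes (50.6 and 58.7 FPKM, q = 0.194 in the authors' deposited table) and was left out of these counts.

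**Figure D4:**
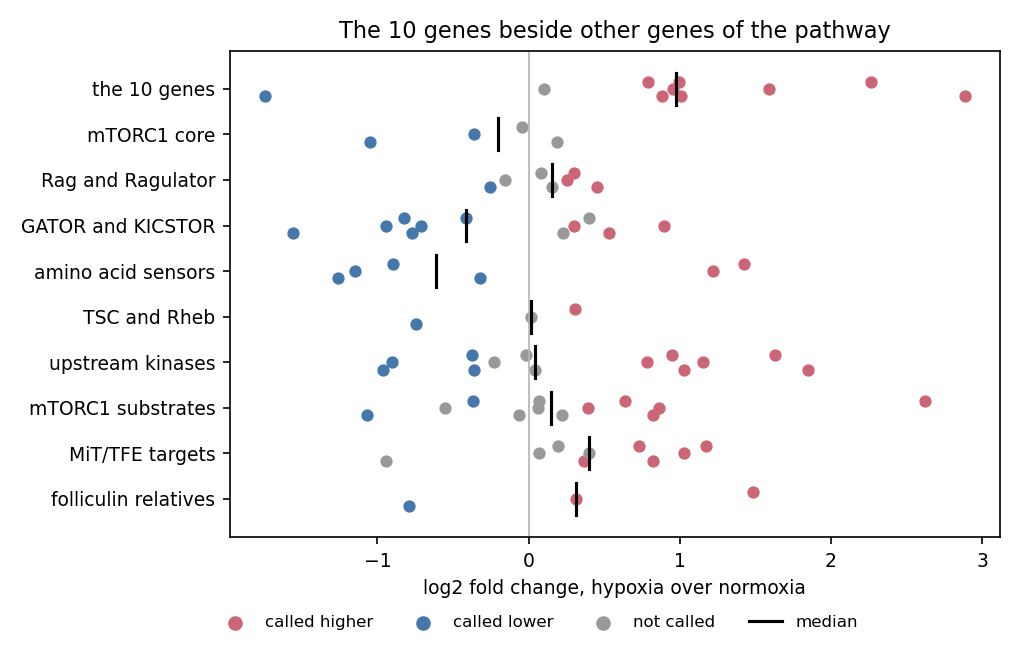
Each point is the log2 fold change of 1 tested gene, grouped by list and coloured by the authors' calls, with the list's median as a black bar. The 10 genes have a median of 0.98 with Ddit4l alone on the left, the GATOR and KICSTOR list is centred at -0.42 and the sensors at -0.61.

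Of 6 genes known to respond to low oxygen, set as a check of the labels, all 6 rose, with a median log2 fold change of 2.89, and Ankrd37 rose most (12.7 to 159 FPKM). Of 10 fibroblast markers 8 were tested, with 1 rise, 5 falls, 2 without a call and a median log2 fold change of -0.43. Vim rose from 883 to 2249 FPKM, and Col1a2, Col3a1, Thy1, Pdgfrb and Dcn fell, Col3a1 the most (328 to 182 FPKM). Col1a1 was abundant in both conditions without a call (463 and 451 FPKM), whereas Fap and Lum stayed at or below 0.0688 FPKM and were not tested. Of 10 markers of other cell types 7 were not tested, at or below 0.0848 FPKM, and Krt14 (15.9 and 10.8 FPKM), Epcam (5.97 and 5.22 FPKM) and Cd68 (1.32 and 2.27 FPKM) were present. The part of such cells, and of the lower fibroblast markers, in the results above was not tested. The depth of the libraries is unknown.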

How the data were processed

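RNA-seq libraries were stranded and poly-A selected, per the labels' protocols. The submitters' processing notes name Cuffdiff 2.2.1, Cufflinks, StringTie 1.3.4d and HISAT2 2.1.0, and the build GRCm38. The authors deposited 1 table with an FPKM per gene and condition, a log2 fold change, a test statistic (a score), and both a q-value and a p-value, per the file headers. Scaling between libraries and the use of strand in counting are not given in the sources used here. Repeated rows were counted once (53207 rows, 51482 measurements).

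No test was run here: calls are the authors' q below 0.05. The deposited score gave the deposited p-value as a normal deviate within 0.1 in log10 p for 17.3% of 9388 tested measurements above the smallest p, under the 80% set for deriving a standard error, so none is given. Medians use the deposited log2 fold changes unless log2(FPKM + 1) is named. Coordinates are 1-based, with gene positions from GENCODE M21. Promoter windows and motif distances are counted from RefSeq starts, which can differ from the GENCODE gene ends, as for Ddit4 and Ddit4l. The Ddit4l window (137623422 to 137623721) lies inside the GENCODE gene, which starts at 137621612. The scripts ran in Python 3.11.15 with pandas 2.3.3. The steps for calls, scaling, folds and motif search were checked on changes planted in the deposited values and on made-up sequences. In that check q was set together with the planted folds, so recovery of the calls was fixed beforehand.

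Members, lists and tests were chosen with earlier results of these data known. Named are all 10 genes, and of each list the called genes with the largest rise and fall, plus Mtor, Rptor, Tfeb, Tfe3, Mitf and Hif1a. Mlst8, Rheb, Smcr8, overlapping genes and markers were named after their values were seen. Measurements that carry several gene names were left out of list counts. Alternatives were stricter q, a 2-fold threshold, FPKM filters, pseudocounts and rescaling.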

Additional observations from a re-analysis of the deposited data

How the results depend on the processing

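At q below 0.01 the counts stayed at 8 higher and 1 lower, which was fixed beforehand because every called gene has a Cuffdiff q of 0.000139. A minimum average of 1 FPKM removed none of the 10 genes, the lowest average being 1.63 FPKM (Rragd). That filter therefore could not alter the counts either. Requiring 2-fold left 4 higher and 1 lower. A minimum average of 5 FPKM kept 6 of the genes, 5 of them higher and 0 lower, since Ddit4l lies under it. Among the 4 genes with no other measurement in their locus (a choice made after seeing the data) 3 were higher and 1 lower. The median on the scale of log2(FPKM + 1) was 0.82, and between 0.61 and 0.94 under the 6 alternatives run. Rescaling by the median of ratios shifted log2 fold changes by 0.01, and rescaling by summed FPKM, added after seeing the data, by -0.22. Under the latter the log2 fold change of Tsc2, 0.10 as deposited, became -0.12, and the other 9 genes kept their direction. A pseudocount of 1 moved Rragd from 2.89 to 1.48, Ddit4l from -1.74 to -1.01 and Deptor from 0.99 to 0.60.

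No paired analysis was possible because the table holds 1 combined value per condition. For the same reason leaving out samples and a count model were not run, and the unknown depth limits what can be said of Rragd, Deptor and Ddit4l, the scarcest genes.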

Other observations

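The protein-coding genes that flank the 10 genes were split in direction, as were all tested measurements (28.9% higher and 29.0% lower). Of 20 such neighbours 13 were tested as single genes, of which 5 rose, 5 fell and 3 were not called in the authors' deposited table. The neighbours named here were chosen after their values were seen. Beside Ddit4, Dnajb12 fell 1.22-fold (26.9 to 21.9 FPKM). On the far side of the gene, Anapc16 was not called (45.0 and 55.1 FPKM, q = 0.0988 in the authors' deposited table). Nthl1, which begins 50 bases from Tsc2 on the opposite strand, stood at 17.7 and 18.6 FPKM and was not called there either (q = 0.584). Spaca9, 913 bases from the 3′ end of Tsc1 on the opposite strand, rose from 0.330 to 1.12 FPKM, and Tsc1 rose 1.94-fold. Pld6, on the same strand as Flcn and 3763 bases beyond its 3′ end, rose from 0.496 to 1.05 FPKM. Mycbp, 5177 bases upstream of Rragc on the same strand, fell from 25.3 to 16.5 FPKM.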
